A study of Homo sapiens with 2 samples.

Results

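The 10 cytosolic aminoacyl-tRNA synthetases described here work outside the multisynthetase complex: SARS1, TARS1, VARS1, AARS1, CARS1, GARS1, NARS1, WARS1, YARS1 and HARS1. They were taken by symbol from the protein-coding genes of the count table, where all 10 were found among 19994. The data were footprint counts of 2 ribosome profiling libraries, 1 per group, from HEK293T, a line derived from human embryonic kidney and labelled WT. Ribosome profiling sequences the RNA pieces that ribosomes shield from nuclease. Both cultures received the plasmid that encodes TetRS, a chimeric pyrrolysyl-tRNA synthetase, and carries the tRNA cassette U6-CM15CGA, written 12 times in its name. Both were kept with the compound named TetBu and harvested after 30 h, following 1 min of cycloheximide at 0.1 mg/mL, which halts elongating cytosolic ribosomes. The culture titled RiboW also received pEGFP-mCherry-T2A-EGFP-151TCG, a fluorescent reporter with a TCG codon in EGFP, and the culture titled RiboWo did not. Each culture was transiently transfected and gave a single library, so the values below compare these 2 libraries with no replicate check. With no RNA library at hand, a change in mRNA level and a change in its translation cannot be told apart.

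An aminoacyl-tRNA synthetase joins an amino acid to its tRNAs, which the elongation factor eEF1A then carries to the ribosome. The enzymes fall into a pair of unrelated structural classes. Several of them, the multisynthetase complex, are held together by scaffold proteins, while the ones described here act as free enzymes. SARS1 joins serine to serine tRNAs and to the selenocysteine tRNA, and it recognises the long variable arm of these tRNAs and not the anticodon. Many synthetase genes are known targets of ATF4, the transcription factor of the amino acid response, which pairs with C/EBP proteins on a composite DNA element.

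That element, in its consensus form TGATGNAAN, was found in the RefSeq promoter windows of 5 of the 8 members with an entry in that table, namely AARS1, CARS1, GARS1, NARS1 and TARS1. Windows ran from 250 bases before to 50 bases after each annotated start site, and both strands were searched. Over the whole table the element was found in 3.61% of 35116 windows, or for 4.45% of 27305 genes. SARS1, WARS1 and HARS1 had no match in their windows, and YARS1 and VARS1 had no entry. The 5 sites are shown because these 5 members, taken by symbol, share this stretch. Each is written 5′ to 3′ on the strand of the gene (GRCh38.p14), with the match in capitals. In NARS1 the match reads along the gene, and in the other 4 genes it is the reverse complement of the consensus.
AARS1 (chr16:70289676-70289704, minus strand): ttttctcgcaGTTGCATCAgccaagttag
GARS1 (chr7:30594834-30594862, plus strand): ttacgcggcgATTTCATCAtgctccgagc
CARS1 (chr11:3057408-3057436, minus strand): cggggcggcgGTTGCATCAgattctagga
TARS1 (chr5:33440956-33440984, plus strand): gcgcctttcgATTGCATCAgctggtccag
NARS1 (chr18:57621804-57621832, minus strand): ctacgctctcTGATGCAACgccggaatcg
The match began 188 bases before the annotated start in AARS1, 34 before it in GARS1 and 3 before it in CARS1. It began 1 base after the start in TARS1 and 14 bases after it in NARS1. AARS1, CARS1 and NARS1 held the same 9 bases, TGATGCAAC, TARS1 held TGATGCAAT and GARS1 held TGATGAAAT. Among the other lists, the element was found for 3 of 7 genes of serine and glycine supply with an entry (SLC1A4, SLC1A5 and SLC38A1) and for 4 of 14 genes of the amino acid response (ASNS, ATF3, CHAC1 and SLC3A2). The complex had it in 2 of 9 genes (IARS1 and MARS1), the mitochondrial synthetases in 1 of 17 (YARS2), and the remaining lists with entries in none. A match describes the letters of a window and is no evidence of binding.

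The libraries held 2519301 counts with the reporter and 3151403 without it, of which 13.7% and 9.77% fell on protein-coding genes. Annotated miRNA genes took 12.5% of RiboW and 30.4% of RiboWo, and mitochondrial rRNA took 44.8% and 45.4%. The reporter itself had 271843 counts in RiboW and 399 in RiboWo, the culture that did not receive it. The part of this difference in composition in the ratios below was not tested beyond the scalings given. All 10 members had counts in both libraries, 853 in all in RiboW and 673 in RiboWo. They made up 0.246% of coding counts with the reporter (exact binomial interval 0.230 to 0.263%) and 0.219% without it (0.202 to 0.236%). Intervals here and below are at 95% and cover counting error only, and they take reads copied by PCR as independent molecules. Of the marker lists, the neuron-like genes known in HEK293 cells had 169 counts against 112, with NEFL at 106 against 49 and NEFM at 56 against 50. The rest of that list did not rise, with ENO2 at 4 against 6, INA at 3 against 7 and STMN2 at 0 in both. Embryonic kidney and adrenal genes had 19 against 26, leukocyte genes 14 against 44 with PTPRC and CD3E at 0 in both, and fibroblast genes 40 against 64. Hepatocyte genes had 1 against 25 and erythroid genes 0 against 3. Lists of other cell types thus had fewer counts in sum with the reporter. In the hepatocyte and erythroid lists no gene had more counts with the reporter. ALB had 0 against 13, SERPINA1 0 against 8, APOB 1 against 4 and HBB 0 against 3, and the rest had 0 in both. Genes of the leukocyte and fibroblast lists were mixed. CD74 had 9 against 24, CORO1A 1 against 14 and COL1A2 4 against 21. The reverse held for ACTA2 at 23 against 9, CD14 at 3 against 0, LUM at 2 against 0 and LYZ at 1 against 0. The part of these lists in the values below was not tested.

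Levels of different genes were compared on the deposited RPKM scale, which divides counts by the listed gene length and by a library size. SARS1 had the highest level of the 10 in both libraries, with an RPKM of 10.2 with the reporter (8.42 to 12.3) and 7.05 without it (5.55 to 8.84). With the reporter its level was 1.52 times that of NARS1, the next in order (1.13 to 2.05). Without it, SARS1 was level with TARS1 within counting error, at 1.02 times (0.738 to 1.42). The length matters to this order. GARS1, with the most counts of the 10, was divided by a listed length of 17366 bases and came 7th in both libraries, while SARS1 was divided by 3849. The listed lengths ran up to that of GARS1, and reads from ribosomes fall on the coding part of an mRNA. Coding lengths were not used here, so the order per length describes the deposited scale only.

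With the reporter the order below SARS1 was NARS1 at an RPKM of 6.72, TARS1 at 5.48, WARS1 at 4.65, AARS1 at 4.52, YARS1 at 3.70, GARS1 at 2.89, VARS1 at 2.43, HARS1 at 1.40 and CARS1 at 1.04. Only 2 of the 9 neighbouring pairs in this order differed beyond counting error, SARS1 over NARS1 and VARS1 over HARS1. Without the reporter the order was SARS1, TARS1 at 6.89, WARS1 at 4.21, NARS1 at 3.63, AARS1 at 3.18, VARS1 at 2.77, GARS1 at 2.54, YARS1 at 2.30, CARS1 at 1.51 and HARS1 at 1.05. There, too, 2 of 9 neighbouring pairs differed, TARS1 over WARS1 and YARS1 over CARS1. The middle of both orders was thus not resolved at this depth. For scale, TetRS, the synthetase brought in by plasmid, had an RPKM of 8058 with the reporter and 16526 without it.

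**Figure D1:**
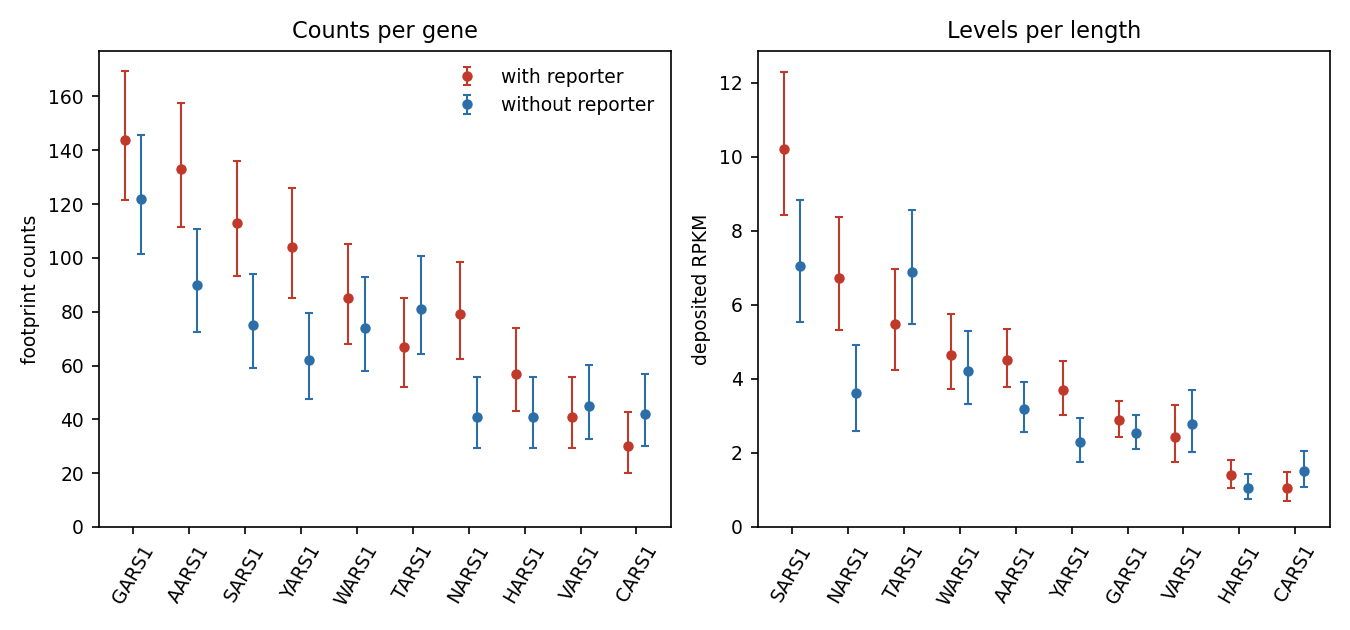
Footprint counts (left) and deposited RPKM (right) of each free cytosolic synthetase with the reporter (red) and without it (blue). Points are single libraries, and bars are exact Poisson intervals at 95% for counting error. SARS1 is the highest per length in both libraries, and TARS1, VARS1 and CARS1 have fewer counts with the reporter than without it.

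Between the libraries the free synthetases ranged from 1.76-fold higher in RiboW for NARS1 to a fold of 0.652 for CARS1, and SARS1 was 1.37-fold higher. Counts were scaled for this by the TMM method over all rows, and values are log2 ratios of RiboW over RiboWo, so that a value above 0 means more footprints in the culture that held the reporter. A gene was taken as measured where both libraries together held at least 100 counts, which left 1060 coding genes. Of the members, 7 were measured, while HARS1, VARS1 and CARS1 were below this minimum. None of the 7 was at least 2-fold higher or lower with an interval excluding 0. The same rule took 2.83% of measured coding genes as higher and 0.566% as lower. Intervals lay above 0 for 4 of the 7, against 26.1% of measured coding genes, and below 0 for none, against 11.9%. Relative to the median coding gene, the interval lay above 0 for NARS1 (0.70, 0.14 to 1.28) and YARS1 (0.50, 0.03 to 0.98) and below 0 for TARS1. The median over the 7 was 0.43, beside 0.11 over all measured coding genes, and over all 10 members it was 0.23. With all 10 counted as 1 pool, the log2 ratio to all coding counts was 0.17 (0.02 to 0.32).

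SARS1 is described first, with the enzymes that remove serine from other tRNAs. SARS1 (chromosome 1, 109213918 to 109238182) had 113 counts in RiboW and 75 in RiboWo. The log2 ratio was 0.46 (0.03 to 0.90), a fold of 1.37. It was higher in the library with the reporter than the median coding gene by 0.35, but that interval held 0 (-0.09 to 0.79), and 77.4% of measured coding genes had a lower ratio. AARS1 joins alanine to its tRNA and removes serine attached to it by mistake (chromosome 16, 70251983 to 70289707). AARS1 had 133 counts against 90, a log2 ratio of 0.43 (0.03 to 0.83), close to that of SARS1. TARS1 joins threonine to its tRNA and likewise removes misattached serine (chromosome 5, 33440696 to 33468091). TARS1 had 67 counts against 81 and was the only measured member with fewer counts in RiboW. Its log2 ratio was -0.41 (-0.89 to 0.08), which turned to 0.05 when libraries were scaled by total counts. Relative to the median coding gene TARS1 lay at -0.52 (-1.01 to -0.03), and 12.5% of measured coding genes had a lower ratio. The ratios of SARS1 and TARS1 differed by 0.87 (0.20 to 1.53), a value that does not depend on the scaling. Widened for the 45 pairs of members, that interval held 0 (-0.21 to 1.95).

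NARS1, the synthetase for asparagine, had the highest ratio of the 10 (chromosome 18, 57600656 to 57622213). NARS1 had 79 counts in RiboW and 41 in RiboWo, a log2 ratio of 0.81 (0.25 to 1.40) and a fold of 1.76. GARS1 joins glycine to its tRNA and serves both the cytosol and the mitochondria from 1 gene (chromosome 7, 30580533 to 30634033). GARS1 had 144 counts against 122, a log2 ratio of 0.11 (-0.25 to 0.47), which was that of the median coding gene. HARS1, the histidine enzyme and a known target of autoantibodies in myositis, had 57 counts against 41 (0.34, -0.26 to 0.96). Its locus (chromosome 5, 140673035 to 140691537) shares 108 bases with that of its mitochondrial counterpart HARS2 on the other strand. These 3, with SARS1, AARS1 and TARS1, belong to class II.

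The class I members were YARS1, WARS1, VARS1 and CARS1. YARS1, the tyrosine enzyme, whose fragments are known to act as cytokines, was the second highest of all members (chromosome 1, 32775237 to 32818031). YARS1 had 104 counts in RiboW and 62 in RiboWo, a log2 ratio of 0.61 (0.15 to 1.09). WARS1 joins tryptophan to its tRNA and is known to be induced by interferon gamma (chromosome 14, 100333790 to 100376805). WARS1 had 85 counts against 74 (0.07, -0.40 to 0.54). VARS1, the valine enzyme, associates with the eEF1 complex (chromosome 6, 31777518 to 31795752). VARS1 had 41 counts against 45, and its log2 ratio of -0.27 (-0.91 to 0.38) turned to 0.19 under total counts. CARS1, the cysteine enzyme (chromosome 11, 3000922 to 3057613), had the lowest ratio of the 10, with 30 counts against 42 (-0.62, -1.34 to 0.09). Relative to the median coding gene its interval lay below 0 (-1.46 to -0.02). Pooled, class II had 593 counts against 450 and class I had 260 against 223. Their log2 ratios differed by 0.18 (-0.15 to 0.50), which was within counting error.

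**Figure D2:**
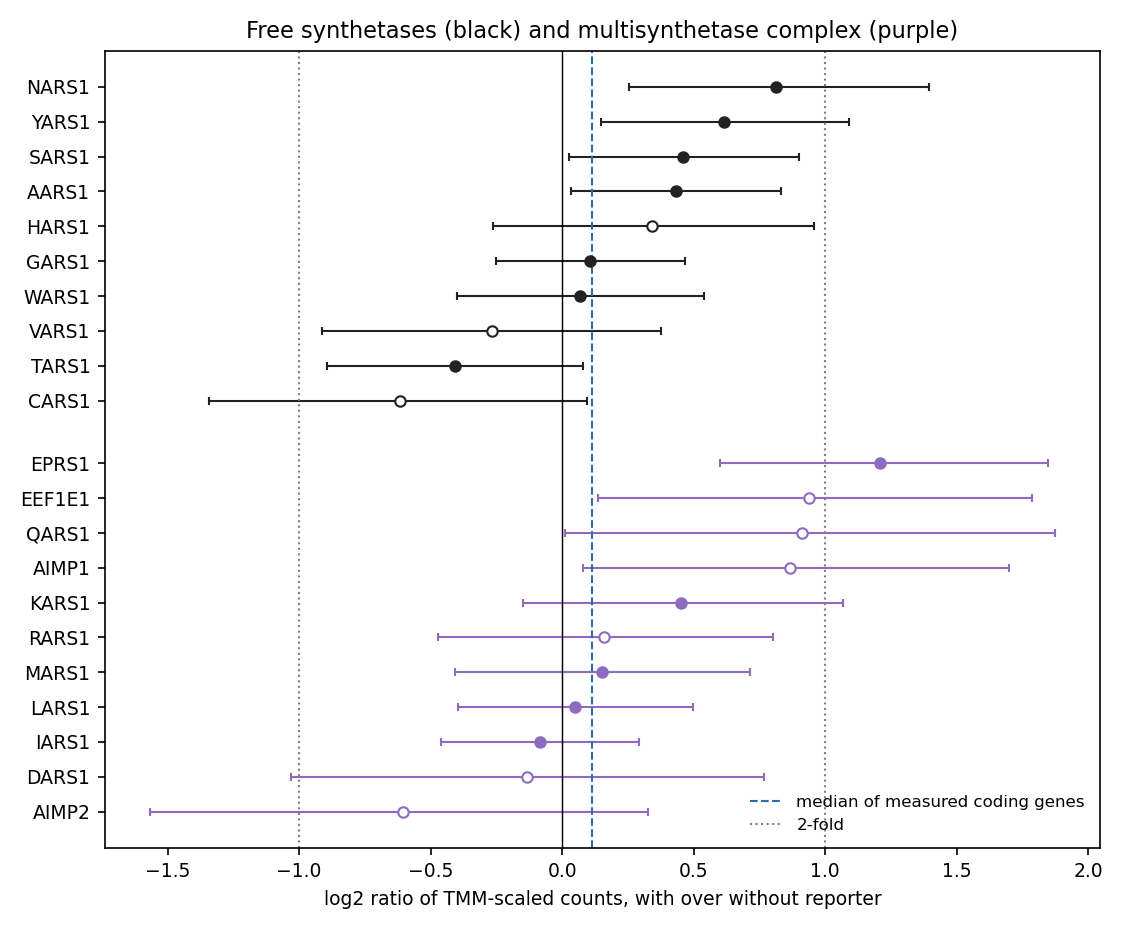
Log2 ratios of TMM-scaled counts, RiboW (with the reporter) over RiboWo, for the free synthetases (black) and the multisynthetase complex (purple). Bars are exact intervals at 95% for counting error, and filled points have at least 100 counts over both libraries. The free synthetases run from NARS1 at 0.81 to CARS1 at -0.62, and none passes 2-fold.

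Members were also set against each other, which removes the scaling. Of 45 pairs, 13 had a difference of ratios whose interval at 95% excluded 0. These were the pairs of NARS1 with GARS1, WARS1, VARS1, TARS1 and CARS1, of YARS1 with VARS1, TARS1 and CARS1, of SARS1 and AARS1 each with TARS1 and CARS1, and of HARS1 with CARS1. With intervals widened for 45 comparisons, 0 of the pairs excluded 0. NARS1 against TARS1 came nearest, at 1.22 (-0.003 to 2.47). Among the 7 measured members the SD of log2 ratios was 0.41, and among the 794 coding genes with 100 to 266 summed counts it was 0.48.

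**Figure D3:**
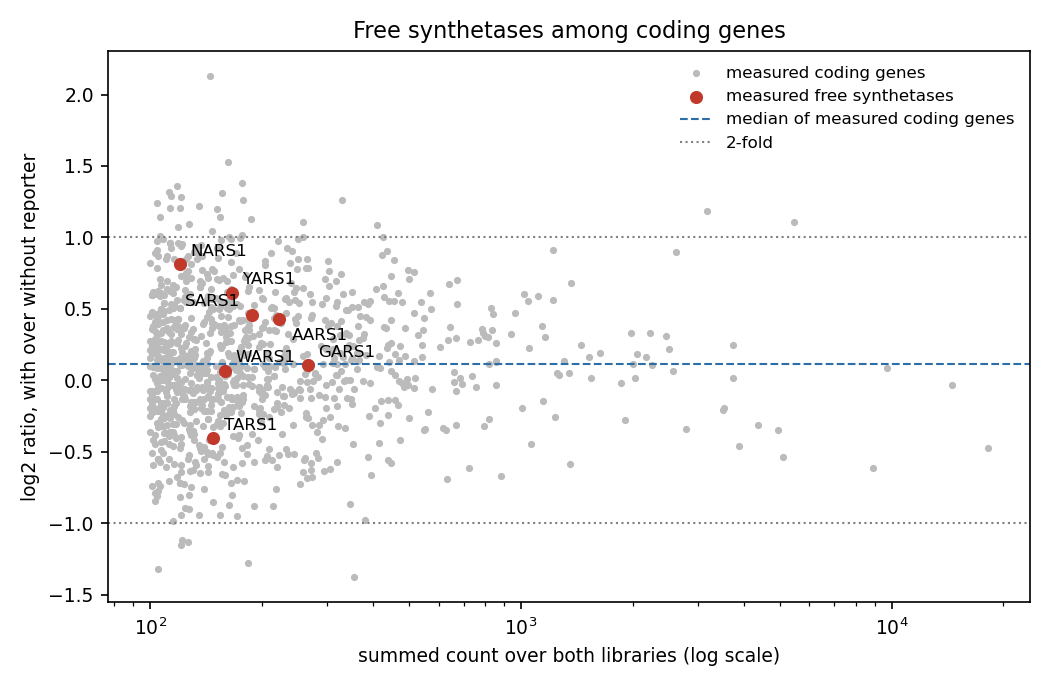
Log2 ratio against summed count (log scale) for the 1060 measured coding genes (grey) and the 7 measured free synthetases (red). The synthetases lie between -0.41 and 0.81, inside the cloud of coding genes of like count.

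The members with and without the ATF4 element overlapped in their ratios. Those with it were at 0.81 for NARS1, 0.43 for AARS1, 0.11 for GARS1, -0.41 for TARS1 and -0.62 for CARS1. Those without a match were at 0.46 for SARS1, 0.34 for HARS1 and 0.07 for WARS1. ATF4 had 157 counts in RiboW and 195 in RiboWo (-0.44, -0.76 to -0.13), which was the lowest ratio among 5 measured genes of the amino acid response list. Under total counts, which moved the median coding gene by 0.46, ATF4 lay at 0.01, and under the other scalings it stayed below 0. SESN2, a stress-induced regulator of mTORC1, was the highest at 1.07 (0.49 to 1.68) and the only gene of the list past 2-fold. ASNS, which makes asparagine and is a classic target of ATF4, had 2 counts against 1, so no difference was detectable at this depth.

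Most members have a separate mitochondrial counterpart, and 9 such pairs were compared. YARS1 and YARS2 were the only pair whose ratios differed with an interval excluding 0. YARS2 had 11 counts in RiboW and 35 in RiboWo (-1.80, -2.93 to -0.79) and was below the count minimum, while YARS1 had 104 against 62. The difference was 2.42 (1.27 to 3.64, and 0.87 to 4.15 when widened for 9 comparisons). SARS2, which charges mitochondrial serine tRNAs, had 3 counts against 8, and its difference from SARS1 of 2.01 had an interval from -0.12 to 4.59. VARS2 had 1 count against 0, so that its pair gave no value. NARS1 minus NARS2 came to 1.15 (-0.17 to 2.48) and AARS1 minus AARS2 to 0.34 (-0.47 to 1.14), both within counting error. TARS1 minus TARS2 was -0.10 (-0.84 to 0.65). For HARS1, CARS1 and WARS1 the difference was -0.66, -0.75 and -2.12, each within counting error. All 20 mitochondrial synthetase and amidotransferase genes had counts, but only 2 were measured, IARS2 at 0.70 (0.21 to 1.20) and TARS2 at -0.31 (-0.86 to 0.24). As pools, the free cytosolic synthetases exceeded the 20 mitochondrial genes by 0.29 (0.04 to 0.54). The mitochondrial pool had 411 counts in RiboW and 397 in RiboWo, and it includes YARS2 at 11 against 35. Whether the difference of the pools holds without YARS2 was not tested.

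**Figure D4:**
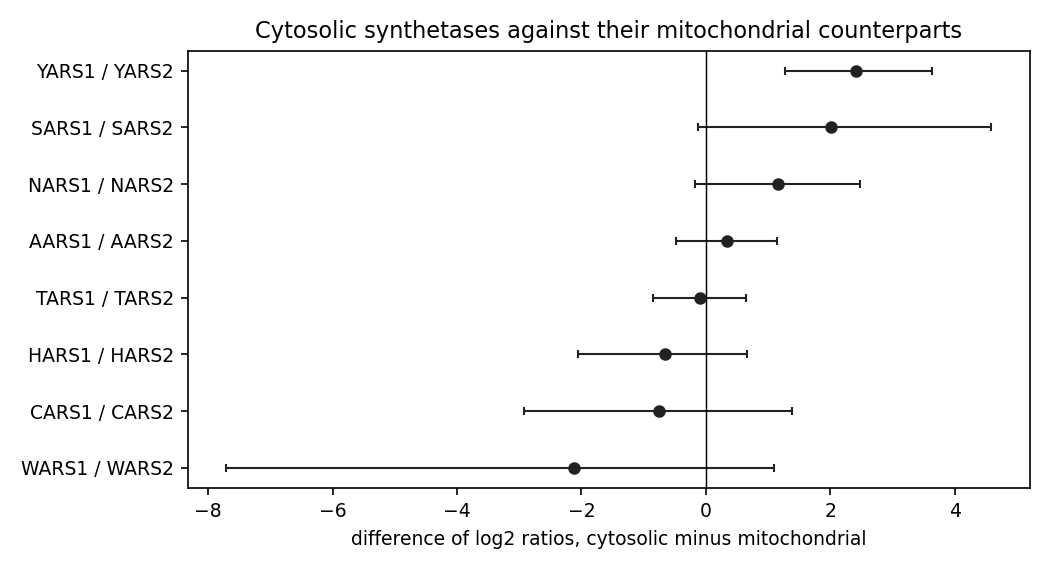
Difference of log2 ratios, cytosolic minus mitochondrial, for the 8 pairs with counts in all 4 cells, with exact conditional intervals at 95% for counting error. YARS1 and YARS2 differ by 2.42, and the intervals of the other pairs include 0.

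The multisynthetase complex, with 626 counts against 469 over its 11 genes, did not differ from the free synthetases beyond counting error. The free members minus the complex came to -0.07 (-0.31 to 0.16) as pools. Of its 5 measured genes only EPRS1, the joint enzyme for glutamate and proline, was past 2-fold, at 1.21 (0.60 to 1.85). IARS1, the isoleucine enzyme, was lowest at -0.08 (-0.46 to 0.29). Of the phenylalanine enzyme, which is free but has separate subunit genes, FARSA was at 0.18 (-0.41 to 0.78) and FARSB, below the count minimum, at -0.56 (-1.23 to 0.10). TARS3, a paralog of TARS1, had 14 counts against 9.

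Partners of the members in translation and amino acid supply gave no further measured gene past 2-fold. In the eEF1 complex, to which charged tRNAs pass, EEF1B2 was at 0.70 (0.17 to 1.23) and EEF1A1, the carrier of charged tRNAs, at 0.01 (-0.08 to 0.11). EEF1G was listed at 0 counts in both libraries. Of the genes for making selenocysteinyl-tRNA from seryl-tRNA and for its use at the ribosome, 1 of 5 was measured, SEPHS2 at 0.22 (-0.12 to 0.56). In serine and glycine supply 2 of 9 genes were measured. These were PHGDH, which starts serine synthesis, at 0.08 (-0.43 to 0.58) and the transporter SLC38A2 at -0.01 (-0.37 to 0.36). Below the count minimum, PSAT1 had 32 counts against 13 (1.17, 0.20 to 2.22) and PSPH 15 against 3 (2.19, 0.37 to 4.62). The intervals of the other genes below the minimum included 0, and of these only SHMT1 had fewer counts with the reporter, 4 against 6. No gene of the list of editing factors was measured. Its most counted gene, DTD1, which removes D-amino acids from tRNA, had 10 counts against 1 (3.19, 0.38 to 8.63). The coding genes nearest to SARS1 by log2 RPKM over the 2 libraries were GPI at a distance of 0.025, KAT2A at 0.030 and SMIM14 at 0.055, with ratios of 0.47, 0.42 and 0.38.

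Shared sequence bears on a few of these counts. Of the 10 loci, 7 overlap another listed gene, and the use of strand in the counting is unknown here. YARS1 shares 1265 bases with S100PBP, which had 21 counts against 11, and AARS1 shares 45 bases with DDX19B at 19 against 12. HARS1 also shares 1090 bases with WDR55 at 35 against 27, and VARS1 contains a Y RNA gene with 6 counts against 8. SARS1, TARS1 and NARS1 overlap no other listed gene. The 6 pseudogenes named for members had 0 counts in both libraries. How reads matching several places were counted is unknown, so these 0 counts do not show that no reads were shared.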

How the data were processed

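Reads were single-end, 50 nt long, per the labels' protocols. The table deposited by the authors gives whole-number counts for 61554 rows. TopHat2 2.0.12 and HTSeq 0.9.1 are listed per the submitters' processing notes, with no role, beside the builds GRCh37 and hg19. The loci of all 10 members overlapped their RefSeq GRCh38.p14 loci, as did 19063 of 19065 coding symbols, so coordinates are those of GRCh38. The deposited RPKM values equalled the authors' counts over listed length and over 1 size per library, 1.14 times the total counts with the reporter and 0.877 times without it. Counts were scaled with edgeR 4.0.16 (TMM) in R 4.3.3. Intervals were Clopper-Pearson for ratios and shares, Poisson for counts and conditional odds ratios for differences of ratios (Python 3.11.15, scipy 1.17.1). No p-value is given, since a group is 1 library. The call rule was tested on counts simulated with counting error only, so variation between cultures was not part of that test. All members were named, with the highest and lowest measured gene of each list (the most counted where none was measured), genes past 2-fold and the 3 genes nearest to SARS1. ASNS, FARSB, EEF1G, PSAT1, PSPH, SHMT1, single marker genes, the mitochondrial counterparts and the overlapping genes were named in addition, after their values were seen. The members, lists and the promoter element were chosen with earlier results of these data known. Promoter sequences came from RefSeq (GRCh38.p14). As alternatives, libraries were scaled by total counts, by coding counts or by DESeq2 1.42.0, with other count minimums and fold thresholds and with log2 of RPKM plus 0.1.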

Additional observations from a re-analysis of the deposited data

How the results depend on the processing

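No member passed 2-fold under DESeq2 size factors, coding totals, TMM over coding rows or any count minimum run (1, 20, 50 and 200). In these settings 1.79% to 6.69% of coding genes passed as higher and 0.255% to 6.54% as lower. Under total counts 2 passed as higher, NARS1 and YARS1, beside 17.9% of measured coding genes. At a threshold of 1.5-fold 2 passed as higher, beside 14.7% of coding genes as higher and 6.23% as lower. With no fold threshold 4 passed as higher, beside 26.1% of coding genes as higher and 11.9% as lower. The median of the members moved to 0.89 under total counts, where the coding median was 0.57, since a scaling shifts all genes alike. It was 0.23 at a minimum of 1, 20 or 50 counts, because HARS1, VARS1 and CARS1 then entered. Relative to the coding median it was 0.32 in the reported setting and 0.18 by means. At minimums of 1, 20, 50 and 200 counts it was 0.23, 0.16, 0.14 and 0.13, the last with only 2 members. Not taken relative to the coding median, the median of the members stayed between 0.27 and 0.51 under the settings other than total counts and the lower minimums. That range includes the median of 0.46 over the 3 measured members with no overlapping gene, an alternative chosen after seeing the data. As a share of all counts the pool of members was at 0.66 and not 0.17, and without GARS1 it was at 0.19. By counts not divided by length, 3 members exceeded SARS1 in a library, against 0 per length. For single members total counts changed the sign of 2, TARS1 and VARS1, and the other scalings of none. Leaving out a library was not possible with 1 per group. No paired analysis was possible because each group had 1 library. Depth limits all of this: the intervals spanned 0.72 for GARS1 and 1.44 for CARS1 on the log2 scale.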
